A study of Homo sapiens with 6 samples.

Results

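Expression of 10 genes of retinoid metabolism and retinoic acid signaling was examined after silencing of AKR1B10 in PC9-BrM3 cells. The genes were listed by symbol, from their known roles, and all 10 were found among the 58735 genes of the deposited table: the retinal dehydrogenases ALDH1A1, ALDH1A2 and ALDH1A3, the retinol and retinal oxidoreductases RDH10, RDH11, DHRS3 and DHRS9, the retinoic acid carrier CRABP2, and the receptors RARA and RARB. PC9-BrM3 is a brain-metastatic derivative of the human lung adenocarcinoma line PC9, obtained by repeated passage of the cells through the brains of immunodeficient mice. RNA-seq was available for 3 libraries of cells carrying a lentiviral shRNA against AKR1B10 (BrM3-shAKR1B10) and 3 libraries of cells with negative control shRNA (BrM3-shNC), whose genotype the labels give as WT. The labels give routine culture as the treatment of all 6, and the study's legends name a single AKR1B10 shRNA, vector 1, for these cells, so a response to the gene and a response to that vector cannot be told apart. The labels do not say whether libraries of a group came from separate cultures, and the p-values then measure only the spread between these libraries.

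Retinoic acid is made from vitamin A in successive oxidations. Retinol is first oxidized reversibly to retinal by short-chain dehydrogenases, and retinal is then oxidized irreversibly to retinoic acid by the ALDH1A enzymes. Reductases that turn retinal back into retinol, among them AKR1B10, work against this flow. Retinoic acid is carried to the nucleus by CRABP2, binds RAR receptors paired with RXR receptors on DNA, and is hydroxylated for removal by CYP26 enzymes. The question addressed here was whether the messages of these enzymes and receptors shifted when AKR1B10, a retinal reductase, was silenced.

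RAR and RXR pairs bind direct repeats of a short half-site, and the repeat with a spacer of 5 bases (DR5) is the classical retinoic acid response element. Promoter windows from RefSeq (GRCh38.p14, from 250 bases before to 50 after each annotated start) were searched on both strands for 2 half-sites in the same direction, either the half-site AGGTCA or its variants with the letters AGTTCA, with the letters GGTTCA or with the letters GGGTCA, and any 5 bases between them. Such a match lay in 31 of 35116 windows, or 0.0883%. Windows were given for 9 of the 10 genes, and the search found a match in 1 of them, RARB. Among 47 other retinoid genes with a window it found 1, CYP26A1, whose product hydroxylates retinoic acid. Both sequences are shown because these are the promoters among the retinoid genes in which the element was found. Each is printed for the 150 bases before the start site, on the strand of the gene, with the match in capitals. They lie at chr3:25428113-25428262 and chr10:93073743-93073892, both on the plus strand.
RARB: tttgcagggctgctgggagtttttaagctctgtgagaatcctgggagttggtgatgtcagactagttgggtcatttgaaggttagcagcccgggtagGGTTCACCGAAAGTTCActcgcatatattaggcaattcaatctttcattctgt
CYP26A1: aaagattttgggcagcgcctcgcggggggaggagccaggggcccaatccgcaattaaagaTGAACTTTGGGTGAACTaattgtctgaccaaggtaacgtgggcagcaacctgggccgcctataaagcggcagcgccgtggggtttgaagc
The RARB match runs from 53 to 37 bases before the start on the strand of the gene, and that of CYP26A1 from 90 to 74 bases before the start on the opposite strand. A match is a description of the letters and not evidence of binding in these cells. The other windows of these genes held none of these letter combinations, which says nothing about elements elsewhere in those genes.

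Reads on genes numbered 16964504 to 18709028 per library, recovered as whole numbers from the FPKM values (fragments per kilobase of gene, scaled to library size). The targeted AKR1B10 was 108.3, 107.2 and 110.2 FPKM in the silenced libraries against 798.7, 775.0 and 772.0 FPKM in the controls, a log2 difference of -2.85 (limma, adjusted p = 1.6e-07). Of 9 lung epithelial markers, 6 had a mean of at least 1 FPKM and together they summed to between 3167.7 and 3253.5 FPKM in the silenced libraries against between 2986.5 and 3348.7 FPKM in the controls, while NKX2-1, NAPSA and SFTPB, markers of distal lung lineage, were each under 1 FPKM. The 11 markers of fibroblasts and pericytes, endothelium, immune cells and astrocytes summed to between 3.59 and 3.65 FPKM in the silenced libraries against between 3.77 and 4.09 FPKM in the controls, with COL1A2 listed at 0 in all libraries. The 2 of these with a mean of at least 1 FPKM were called in opposite directions, COL1A1 at -0.67 (adjusted p = 0.0032) and CDH5 at 0.65 (adjusted p = 0.0039) on the log2 scale. Among the epithelial markers EPCAM (-0.24) and KRT7 (-0.19) were lower and CDH1 (0.16) was higher at an adjusted p under 0.05. Their part in the results below was not tested.

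The differences of the tested genes were of the same size as those of all genes. None passed both thresholds used for a call, which were 0.05 for the adjusted p and 0.5 for the size of the log2 fold change. Of all 13150 genes tested 13.3% passed both, a share at which 0 of 7 does not set these genes apart. Testing was limited to genes with a mean of at least 1 FPKM, which 7 of the 10 reached, and limma with Benjamini-Hochberg adjustment called 0 of these 7, with 5 at an unadjusted p under 0.05, which 51.1% of all tested genes had. The voom alternative on the same genes also called 0 of the 7, beside 1038 lower and 789 higher of all 13150 genes. DHRS9, described below, was called only in fits that included lower genes. DHRS3 and CRABP2 were lower, and ALDH1A1, ALDH1A3 and RDH10 were higher, at an adjusted p under 0.05 alone, a rule that 42.5% of all tested genes passed. RDH11 and RARA passed neither. The median log2 fold change of the 7 genes was 0.03 and the median of its absolute value 0.19, beside -0.01 and 0.20 over all genes tested. In 5 of the 7 the groups did not overlap, beside 54.7% of all tested genes. The 3 genes that were not tested, ALDH1A2, DHRS9 and RARB, are described by their values and reads.

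**Figure D1:**
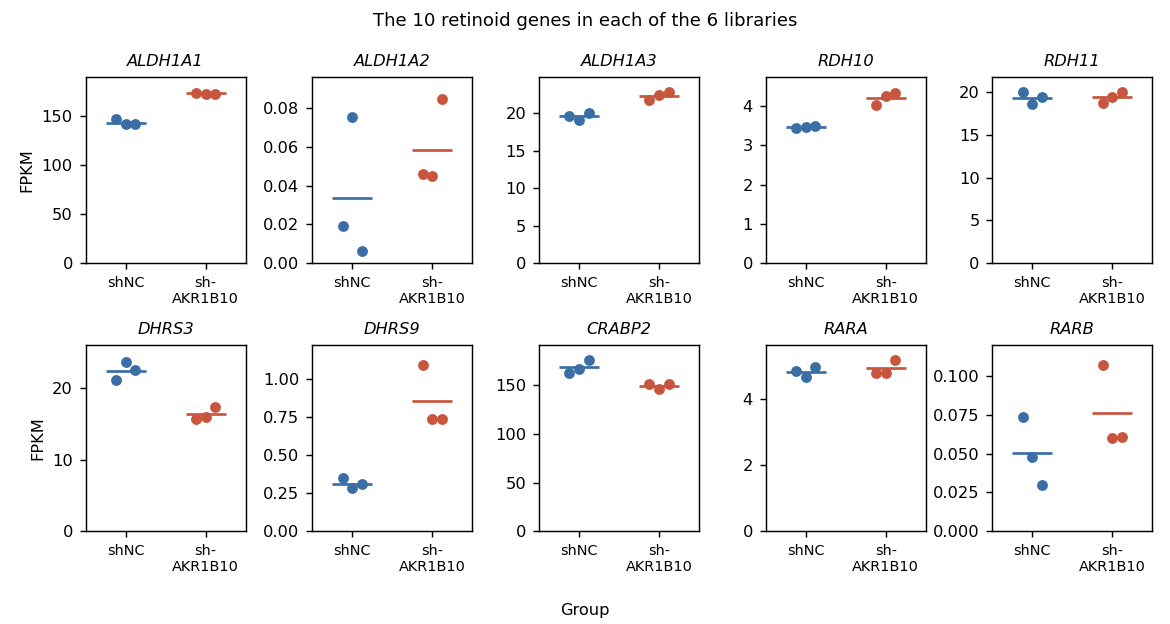
FPKM of the 10 retinoid genes (vertical axes from 0, each panel with its own scale) in the 3 BrM3-shNC libraries (blue) and the 3 BrM3-shAKR1B10 libraries (red), with points for libraries and bars for group means. The groups are apart for ALDH1A1, ALDH1A3, RDH10, DHRS3, DHRS9 and CRABP2 and overlap for RDH11, RARA, ALDH1A2 and RARB.

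The enzymes that interconvert retinol and retinal moved in different directions. DHRS3 (ENSG00000162496, chromosome 1 from 12567910 to 12617731, minus strand, GRCh38), which reduces retinal to retinol, was 15.7, 16.0 and 17.4 FPKM in the silenced libraries against 21.2, 23.7 and 22.5 FPKM in the controls. Every silenced library was below every control library, with means of 16.4 ± 0.915 and 22.5 ± 1.28 FPKM (SD, n = 3 each). Its limma estimate of -0.45 on the log2 scale (standard error, SE, 0.0585, 95% interval -0.59 to -0.31, adjusted p = 0.0013) was the largest of the 7 genes in size, and 19.7% of all tested genes had a larger absolute change. The interval includes the threshold of 0.5 for a call. In RNA from whole cultures, a difference in the share of cells that express a gene and a difference in RNA per cell cannot be told apart.

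RDH10 (ENSG00000121039), which oxidizes retinol to retinal and forms a complex with DHRS3 in which each supports the activity of the other, was 4.03, 4.25 and 4.34 FPKM in the silenced libraries against 3.45, 3.47 and 3.49 FPKM in the controls. The groups did not overlap, and the limma estimate was 0.27 on the log2 scale (SE 0.0523, adjusted p = 0.0068). DHRS3 and RDH10 thus differed in opposite directions. The antisense gene RDH10-AS1 shares 5.22% of the exon bases of RDH10. The ratio of DHRS3 to RDH10 FPKM was 3.90 ± 0.121 in BrM3-shAKR1B10 and 6.48 ± 0.356 in BrM3-shNC (SD, n = 3 each), a description of these libraries without a test of its own.

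RDH11 (ENSG00000072042, chromosome 14 from 67676801 to 67695814, minus strand), another reductase of retinal, was 18.8, 19.5 and 20.0 FPKM in the silenced libraries against 20.1, 18.6 and 19.5 FPKM in the controls. The groups overlapped throughout. Its log2 fold change was 0.00 with a 95% interval from -0.10 to 0.10 (adjusted p = 0.981 from limma).

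DHRS9 (ENSG00000073737, chromosome 2 from 169064789 to 169096167, plus strand), a short-chain dehydrogenase that oxidizes retinol and steroids, was the gene of the set with the largest relative difference, at a low level. It was 1.09, 0.739 and 0.737 FPKM in the silenced libraries against 0.349, 0.284 and 0.307 FPKM in the controls. These values rest on 72, 50 and 49 reads against 24, 18 and 21, and each silenced library was above each control library. The ratio of the summed reads, scaled for library size, was 2.72 with an exact 95% counting interval from 2.02 to 3.69, which covers counting error only. With a mean of 0.584 FPKM it lay below the filter. Without the filter, limma gave 1.19 on the log2 scale (SE 0.237, adjusted p = 0.0205) in a fit that called 6.42% of its genes and 2.98% as higher, and limma's voom on the recovered reads of genes with at least 10 reads gave 1.40 (adjusted p = 2.7e-04) in a fit that called 12% of its genes and 5.78% as higher.

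The ALDH1A enzymes carry out the irreversible step from retinal to retinoic acid. ALDH1A1 (ENSG00000165092, chromosome 9 from 72900662 to 73080442, minus strand) was abundant in both groups, at 174.3, 173.1 and 172.5 FPKM in the silenced libraries against 146.9, 141.7 and 141.7 FPKM in the controls. The groups lay far apart relative to their spread, with means of 173.3 ± 0.925 and 143.4 ± 2.99 FPKM (SD, n = 3 each), a ratio of 1.21. The limma estimate was 0.27 on the log2 scale (SE 0.0287, adjusted p = 5.5e-04), and 38.3% of all tested genes had a larger absolute change.

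ALDH1A3 (ENSG00000184254, chromosome 15 from 100877714 to 100916626, plus strand) differed in the same direction, at 21.8, 22.4 and 22.8 FPKM in the silenced libraries against 19.7, 19.1 and 20.0 FPKM in the controls, with a log2 difference of 0.19 (limma, adjusted p = 0.0064). The antisense gene AC015712.2, at 1.95 and 1.62 FPKM in the groups, covers 27.5% of the exon bases of ALDH1A3, and without knowledge of strand in counting the reads there cannot be told apart. ALDH1A2 (ENSG00000128918), at 0.0459, 0.0450 and 0.0850 FPKM in the silenced libraries against 0.0190, 0.0754 and 0.00636 FPKM in the controls, had between 1 and 13 reads per library. The groups overlapped, and the ratio of summed reads was 1.80 with an exact counting interval from 0.925 to 3.64, so that a difference was not detectable at this depth. Summed over the 3 enzymes, the level was 195.7 ± 0.416 FPKM in the silenced libraries against 163.1 ± 3.09 FPKM in the controls (SD, n = 3 each), and ALDH1A1 made up between 87.6% and 88.9% of that sum in every library.

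CRABP2 (ENSG00000143320, chromosome 1 from 156699606 to 156705816, minus strand), which delivers retinoic acid to RAR in the nucleus, was the other abundant message of the set. It was 151.0, 146.4 and 151.4 FPKM in the silenced libraries against 163.3, 167.2 and 175.7 FPKM in the controls. The silenced libraries were all below the controls, at -0.17 on the log2 scale by limma (SE 0.0369, 95% interval -0.26 to -0.08, adjusted p = 0.0101). With quantile scaling the value was -0.11 and no longer passed (adjusted p = 0.0504). Its paralog CRABP1 and FABP5, the carrier that delivers retinoic acid to PPARD, were both listed at 0 in all 6 libraries. How reads matching several genes were counted is not given, so a listed 0 need not mean that the RNA was absent.

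The receptor RARA (ENSG00000131759, chromosome 17 from 40309192 to 40357643, plus strand) was 4.81, 4.81 and 5.20 FPKM in the silenced libraries against 4.85, 4.67 and 5.00 FPKM in the controls. The groups overlapped, and the log2 fold change was 0.03 with a 95% interval from -0.10 to 0.16 (adjusted p = 0.713 from limma). RARA-AS1, its antisense gene, shares 11.8% of its exon bases. RARB (ENSG00000077092), a receptor known as a retinoic acid target and the gene with the DR5 match printed above, was close to the limit of detection. It had 7, 4 and 4 reads in BrM3-shAKR1B10 and 5, 3 and 2 reads in BrM3-shNC, or at most 0.107 FPKM. The ratio of summed reads was 1.5 with an exact counting interval from 0.631 to 3.74, and a difference was not detectable at this depth.

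The order of the levels, which FPKM allows to be compared between genes per length, differed between the groups. In BrM3-shNC, CRABP2 was highest, followed by ALDH1A1, DHRS3, ALDH1A3, RDH11, RARA, RDH10, DHRS9, RARB and ALDH1A2. In BrM3-shAKR1B10, ALDH1A1 was above CRABP2, and DHRS3 lay below ALDH1A3 and RDH11. Neighbours whose ranges met were ALDH1A3 and RDH11 in BrM3-shNC and RARB and ALDH1A2 in both groups. The ratio of ALDH1A1 to CRABP2 FPKM was 1.15, 1.18 and 1.14 in BrM3-shAKR1B10 and 0.900, 0.848 and 0.807 in BrM3-shNC, and that of DHRS3 to ALDH1A3 was 0.735 ± 0.0280 and 1.15 ± 0.0870 (SD, n = 3 each). No test was made of these ratios.

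The rest of the pathway was read from lists of 65 further retinoid genes, with AKR1B10 left out. Of these, 10 were listed at 0 in all libraries and 29 were tested. Calls were made for 5 of the 29, beside 13.3% of all tested genes: 2 fell (NCOA3 and RARRES1, beside 7.45% of all genes) and 3 rose (RBP5, CYP26B1 and TGM2, beside 5.83%). The median log2 fold change of the 29 genes was 0.03 and that of its absolute value 0.20, the same size as over all genes tested.

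Among the retinol and retinal oxidoreductases outside the set, 6 of 18 were tested and none was called, with 4 at an unadjusted p under 0.05 from limma. With voom on genes with at least 10 reads, a fit chosen after the data were seen that includes lower genes, 1 was called, AOX1. That fit called 12% of its genes. AKR1B1 and AKR1C3, aldo-keto reductases that also accept retinal, were the most abundant. AKR1B1 was 424.0 ± 25.7 FPKM in the silenced libraries against 357.3 ± 9.63 FPKM in the controls (SD, n = 3 each), a log2 difference of 0.25 (limma, adjusted p = 0.0090), and AKR1C3 had a log2 fold change of 0.04 (95% interval -0.12 to 0.19, adjusted p = 0.681). The summed level of AKR1B10, AKR1B1 and AKR1C3 was 680.7 ± 31.9 FPKM in the silenced libraries against 1283.8 ± 21.2 FPKM in the controls (SD, n = 3 each), and the share of AKR1B10 in it was 16.0% and 60.9%. AKR1B15, a close paralog of AKR1B10, was 3.80, 3.58 and 3.31 FPKM in the silenced libraries against 5.38, 4.25 and 4.96 FPKM in the controls. It was lower without overlap, at -0.43 on the log2 scale (limma, adjusted p = 0.0125), and passed both thresholds without the second control library, at -0.53. Reads of such near-identical genes may be split between them in counting, which makes this value uncertain. RDH14, a paralog of RDH11, had a log2 difference of -0.07 (limma, adjusted p = 0.598), and RDH12, its closer relative, had 13 and 8 reads in the groups and was not tested. RDH13, a mitochondrial retinal reductase, had a log2 difference of 0.36 (limma, adjusted p = 7.3e-04) and overlaps AC011476.3 on the opposite strand in 4.06% of its exon bases, a gene at 9.47 and 6.36 FPKM in the groups. On the same strand AC011476.2, at 2.06 and 1.55 FPKM, shares 9.60% of them.

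Among 19 genes of retinoid uptake, binding, storage and cleavage, 7 were tested and RBP5 was called. RBP5, a cellular retinol-binding protein, was 6.28, 6.84 and 6.63 FPKM in the silenced libraries against 4.30, 4.19 and 4.64 FPKM in the controls. The groups were apart by more than their spread, at 0.58 on the log2 scale by limma (SE 0.0585, adjusted p = 4.7e-04). With a pseudocount of 1 in place of 0.1 the log2 fold change was 0.50 and the call was lost. STRA6, the receptor that takes up retinol from its plasma carrier, was 10.9, 9.26 and 10.5 FPKM against 11.5, 11.1 and 12.5 FPKM, a log2 fold change of -0.20 that did not pass (adjusted p = 0.0751) except with voom (adjusted p = 0.0129). DGAT1, which can esterify retinol for storage, had a log2 difference of 0.03 (limma, adjusted p = 0.745), and LRAT, the main retinol esterifying enzyme, was listed at 0.

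The nuclear receptors outside the set were led by RXRA, the common partner of the RARs. RXRA was 28.9, 29.2 and 30.1 FPKM in the silenced libraries against 22.1, 23.5 and 23.2 FPKM in the controls, without overlap, at 0.36 on the log2 scale by limma (SE 0.0372, adjusted p = 5.2e-04). RXRB had -0.03 (adjusted p = 0.690), and RARG, the paralog of RARA and RARB with the highest level of the 3, had 0.11 (adjusted p = 0.0938, and 0.0233 with quantile scaling) with 15.1 ± 0.549 and 14.0 ± 0.576 FPKM (SD, n = 3 each). RXRG was listed at 0. None of the 3 receptors tested in this list passed the fold threshold. An unadjusted p under 0.05 from limma was found for 2, beside 51.1% of all tested genes. By voom 0 were called, beside 1038 lower and 789 higher of all 13150 genes.

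Of 9 receptor coregulators, 8 were tested. NCOA3, a coactivator of nuclear receptors, was 12.1, 12.3 and 12.2 FPKM in the silenced libraries against 18.8, 17.7 and 18.1 FPKM in the controls. It fell by 0.57 on the log2 scale (SE 0.0362, adjusted p = 7.3e-05 from limma), and no silenced library came near a control library. The acetyltransferase EP300 had a log2 difference of -0.07 (limma, adjusted p = 0.157).

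**Figure D2:**
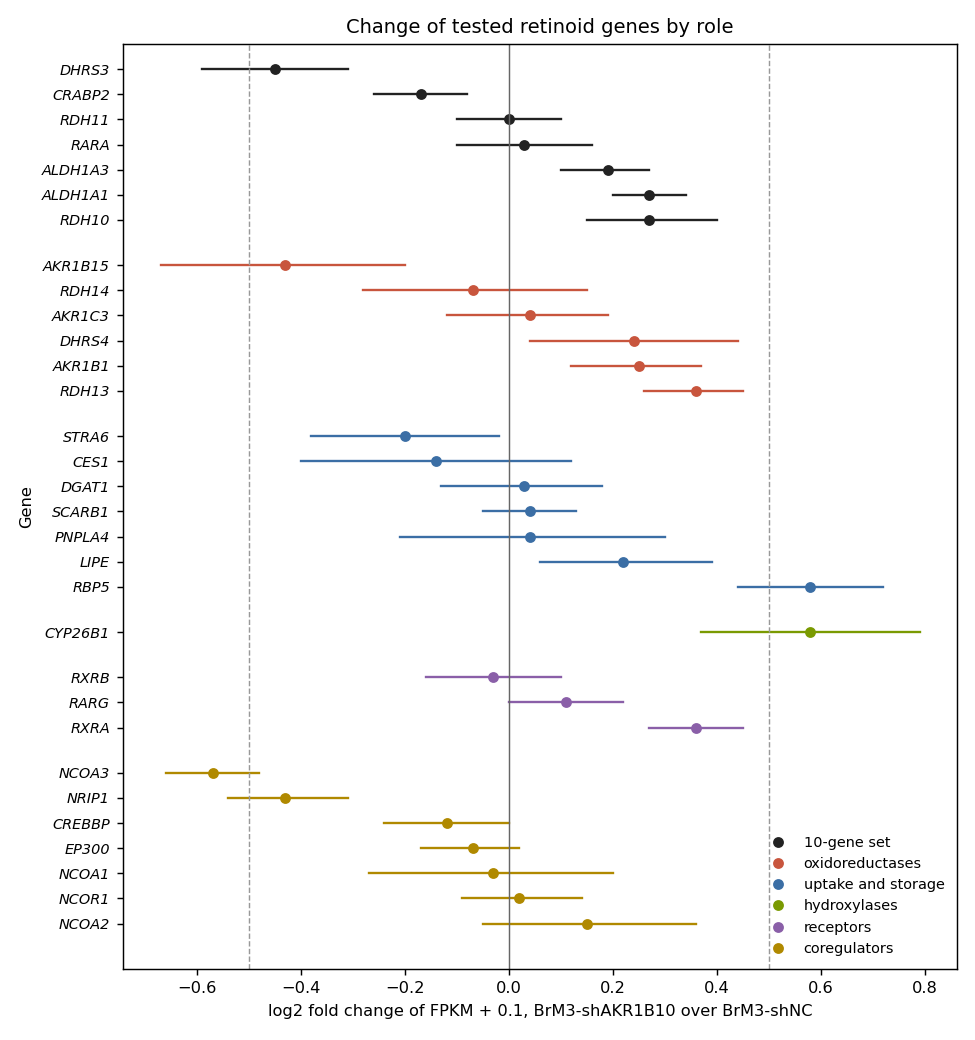
Log2 fold change of FPKM + 0.1 between BrM3-shAKR1B10 and BrM3-shNC (horizontal axis) for tested genes of retinoid metabolism, receptors and coregulators (vertical axis), grouped by role, with points for limma estimates, lines for 95% intervals and dashed lines at the threshold of 0.5 in either direction. All 7 tested genes of the 10-gene set lie between -0.45 and 0.27, inside the dashed lines, and RBP5, CYP26B1 and NCOA3 lie outside them.

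Genes known to respond to retinoic acid did not move in a single direction. Of a list of 20, which includes DHRS3, CRABP2 and RARB, 9 were tested, 2 rose and 1 fell by both thresholds, beside 5.83% and 7.45% of all tested genes, and at an adjusted p under 0.05 alone 5 were lower and 2 were higher, beside 23.1% and 19.4% of all tested genes. The median log2 fold change of the 9 was -0.20 and the median of its absolute value 0.43, beside -0.01 and 0.20 over all genes tested. In 8 of the 9 the groups did not overlap, beside 54.7% of all tested genes. An unadjusted p under 0.05 from limma was found for 8, beside 51.1% of all tested genes.

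TGM2, a transglutaminase induced by retinoic acid in many cells, was 6.92, 7.21 and 6.88 FPKM in the silenced libraries against 4.22, 4.38 and 4.04 FPKM in the controls. It rose by 0.72 on the log2 scale by limma (SE 0.0492, adjusted p = 9.7e-05), with no overlap of the groups. RARRES1, first described as a gene induced by a synthetic retinoid, was 1.62, 1.54 and 1.44 FPKM against 2.61, 2.49 and 2.87 FPKM and fell by 0.75 on the log2 scale (SE 0.0945, adjusted p = 0.0011). Its exons overlap the opposite-strand gene MFSD1 in 14.8% of their bases, and MFSD1 was 8.67 and 9.62 FPKM in the groups. AC080013.1, also on the opposite strand, shares 11.9% of them and was 0.349 and 0.606 FPKM, lower in the silenced libraries as RARRES1 was. FOXA1, a pioneer transcription factor, had a log2 difference of -0.20 (limma, adjusted p = 0.0061). NRIP1, a corepressor of nuclear receptors, was 5.49 ± 0.240 FPKM against 7.40 ± 0.0674 FPKM (SD, n = 3 each), at -0.43 on the log2 scale (limma, adjusted p = 6.4e-04). RARRES3, a phospholipase induced by retinoids, had -0.32 and did not pass (adjusted p = 0.209). Its controls were 5.12, 5.60 and 3.33 FPKM, and without the third it was -0.54 and passed both thresholds (limma, adjusted p = 0.0037), while without the second it was -0.17 (adjusted p = 0.482).

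**Figure D3:**
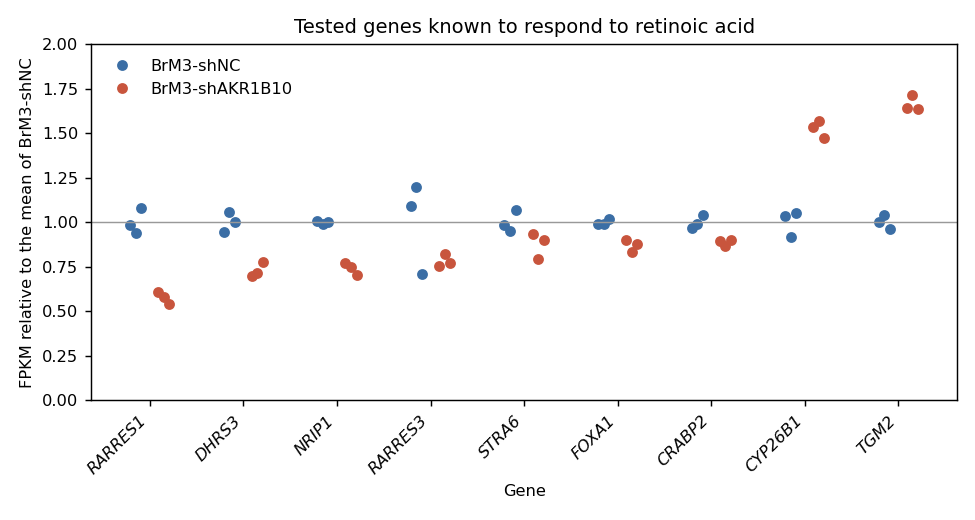
FPKM of the 9 tested genes known to respond to retinoic acid (horizontal axis), each divided by the mean of the 3 BrM3-shNC libraries (vertical axis, from 0), with a point for each BrM3-shNC library (blue) and BrM3-shAKR1B10 library (red). TGM2 and CYP26B1 lie above the control libraries, RARRES1, DHRS3, NRIP1, STRA6, FOXA1 and CRABP2 lie below them, and RARRES3 overlaps. Over all tested genes the groups did not overlap in 54.7%.

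The CYP26 enzymes, which hydroxylate retinoic acid, differed in opposite directions. CYP26B1 was 2.57 ± 0.0784 FPKM in the silenced libraries against 1.68 ± 0.122 FPKM in the controls (SD, n = 3 each), with 689 and 453 reads in all, and rose by 0.58 on the log2 scale by limma (SE 0.0875, adjusted p = 0.0024). With a pseudocount of 1 its log2 fold change was 0.41 and the call was lost. CYP26A1, the gene with the DR5 match shown above, had 5, 3 and 3 reads in BrM3-shAKR1B10 and 27, 20 and 20 reads in BrM3-shNC. Every silenced library was below every control library. The ratio of summed reads, BrM3-shAKR1B10 over BrM3-shNC, was 0.164 with an exact 95% counting interval from 0.0783 to 0.313. Its mean of 0.245 FPKM kept it out of the main test, and without the filter limma gave -1.62 on the log2 scale (adjusted p = 0.0101), and voom -2.48 (adjusted p = 6.2e-04), in fits that called 3.44% and 6.23% of their genes as lower. CYP26C1 had 0 and 2 reads in the groups.

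Other low genes chosen after their values were seen were AOX1 and ETS1. AOX1, an oxidase that accepts retinal, had 43, 45 and 52 reads against 26, 23 and 20, a ratio of 2.03 with an interval from 1.51 to 2.75, and did not pass without the filter (adjusted p = 0.0873 from limma) but did with voom (adjusted p = 0.0031). ETS1, a transcription factor listed among retinoic acid targets, was 0.579 ± 0.0408 FPKM against 1.16 ± 0.0607 FPKM (SD, n = 3 each), with a log2 difference of -0.89 (limma, adjusted p = 0.0112) without the filter.

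**Figure D4:**
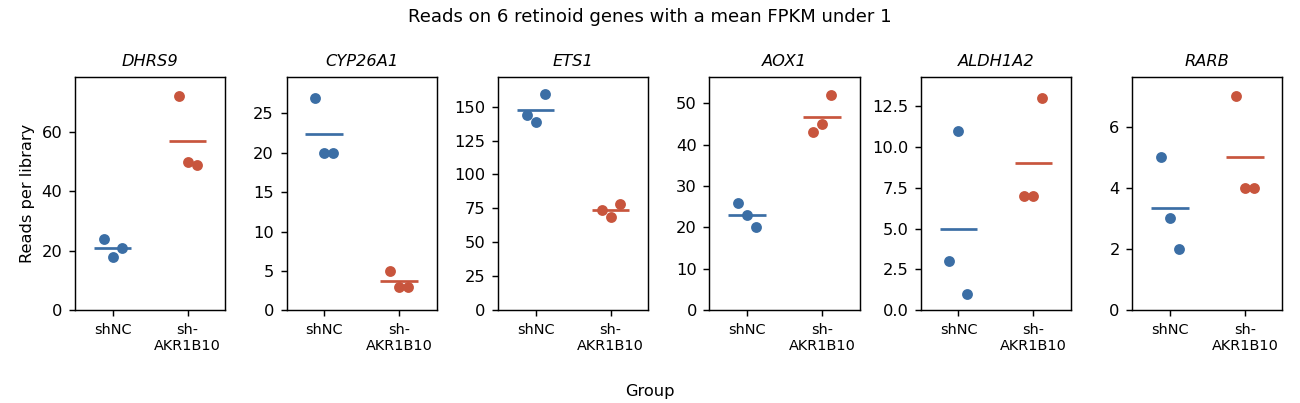
Recovered reads per library (vertical axes from 0, each panel with its own scale) on 6 retinoid genes with a mean FPKM under 1, with points for the 3 BrM3-shNC libraries (blue) and the 3 BrM3-shAKR1B10 libraries (red) and bars for group means. The groups are apart for DHRS9, CYP26A1, ETS1 and AOX1 and overlap for ALDH1A2 and RARB, which have at most 13 reads in any library.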

How the data were processed

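RNA was taken from PC9-BrM3 cells in 3 BrM3-shAKR1B10 and 3 BrM3-shNC libraries. Groups and replicate numbers came from the sample titles. The authors aligned paired-end reads of poly-A selected RNA with HISAT2 2.0.5 and counted them per gene with featureCounts 1.5.0-p3, per the labels, and deposited FPKM values. Genome build and strand setting are not given in the sources used here. The IDs, positions and strands of all 58735 genes match GENCODE 29 (GRCh38). Reads were recovered from FPKM times gene length, which came out whole in units of the step of each library for 100% of values (tolerance 0.01 reads). At this depth 3 reads on 1000 bases correspond to between 0.163 and 0.177 FPKM. No pair of libraries was a duplicate, since chi-square values per gene within groups ran from 2.35 to 4.97.

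log2(FPKM + 0.1) was compared with limma 3.58.1 (R 4.3.3, lmFit and eBayes with a trend) over 13150 genes whose FPKM averaged at least 1, with Benjamini-Hochberg adjustment. The thresholds for a call were those used in the study, 0.05 for the adjusted p and 0.5 for the log2 fold change in either direction. Fold changes on this scale understate those of low genes. Counting intervals are exact binomial (scipy 1.17.1). The 10 genes, the lists and the tests were chosen with earlier results of these data known. Named outside the 10 are every called list gene and the 2 most abundant uncalled genes of each list, paralogs known from their families, overlapping genes, markers, and genes said to be chosen after their values were seen or listed at 0. Some genes of the lists are not reported here. NRIP1, RARRES3, RDH13, AKR1B15 and LRAT were also named after their values were seen. Alternatives were other pseudocounts, filters, scalings and thresholds, voom, a replicate block and libraries left out in turn.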

Additional observations from a re-analysis of the deposited data

How the results depend on the processing

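DHRS3, CRABP2, ALDH1A1, ALDH1A3 and RDH10 kept their direction in every refit that tested them (RDH10 lay below the filter of 5 FPKM), and kept an adjusted p under 0.05 except CRABP2 with quantile scaling (-0.11, adjusted p = 0.0504). With TPM it was -0.14 (adjusted p = 0.0472). None of the 10 was called in any refit but those without the filter, with voom on genes with at least 10 reads (chosen after seeing the data) and without a fold threshold. DHRS9 was the 1 called higher in the former pair. Without a fold threshold (also chosen after seeing the data), 2 of the 10 were lower and 3 higher, 5 of the other retinoid genes were lower and 8 higher, and 3044 of all genes were lower and 2548 higher. Of the other retinoid genes, a pseudocount of 1 left 1 higher, a mean FPKM of at least 5 left 1 lower, the fits without the filter and with voom on at least 10 reads gave 5 lower each, and a threshold of 1 left 0 lower and 0 higher. Over all genes, against 980 lower and 766 higher, a pseudocount of 1 gave 497 higher, a mean FPKM of at least 5 gave 532 lower and 290 higher, a threshold of 1 gave 205 lower and 168 higher, and voom on at least 10 reads gave 1261 higher. TPM scaling gave 873 lower and 902 higher over all genes, so that more were higher than lower. The replicate block changed no call among the retinoid genes (AKR1B10 at -2.85, adjusted p = 2.7e-04). Deviations of same-numbered libraries correlated between -0.0155 and 0.00388, so these libraries showed no shared deviation. Whether they were prepared together cannot be told from such values. Signs turned only in uncalled genes near 0. With libraries left out singly, RDH11 ranged from -0.03 to 0.03, RARA from -0.01 to 0.05, AKR1C3 from -0.02 to 0.10, DGAT1 from -0.02 to 0.08, RXRB from -0.07 to 0.01 and RDH14 from -0.12 to 0.04 (log2 fold change). RXRB was 0.01 with TPM and 0.02 with quantile scaling. The cause was not tested. Depth limits RARB, ALDH1A2, CYP26A1 and DHRS9, which rest on few reads.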
